A study of Mus musculus with 12 samples.

Results

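Aqp8, Adora2b, Adamts16 and Atxn1 were measured in DKO172 cells, a female mouse line grown from a fallopian tumor. They are 4 of the 24184 genes and transcripts tested, and were chosen because they lay lower with every DICER1 construct than with the GFP control in these same arrays. The array carries 8 probes for them, 2 for each gene, of which 7 passed the filter on dim probes and 6 were well above background on all 12 arrays. Because the comparisons with GFP chose the genes, their levels against GFP and their order between the constructs are a description and carry no test.

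The cells fell into 4 groups of 3 arrays. All were transfected with 2 µg of a hygromycin-resistance plasmid, which coded for GFP in the control group, for wild-type DICER1 (WT), or for DICER1 with the substitution D1709N or G1809R. Selection in 300 µg/ml hygromycin began on re-plating 24 h later and lasted 84 h, so that RNA was taken at 108 h. As far as is known of the mouse model rather than from the labels, lines of this name come from tumors of animals in which Dicer1 was deleted, a background that the GFP control would share. The groups are selected pools of 1 line after transient transfection, and the amount of DICER1 made from each plasmid was not measured here. The labels do not say that replicates came from separate cultures. A p-value here therefore measures the spread between these samples alone, and that spread may be technical. In such bulk RNA, fewer cells that express a gene and less RNA per cell cannot be told apart.

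In the cytoplasm DICER1 turns hairpin precursors into miRNA duplexes, from which Argonaute takes 1 strand to silence matching mRNAs. The mutated residues belong to its RNase IIIb domain, which is needed for release of 5p miRNAs, while 3p miRNAs depend on RNase IIIa. The 4 genes have separate roles. Aqp8 codes for a membrane channel that passes water and hydrogen peroxide, Adora2b for the low-affinity adenosine A2B receptor, which raises cAMP through Gs, Adamts16 for a secreted metalloprotease of the extracellular matrix, and Atxn1 for ataxin 1, a nuclear protein that acts in transcriptional repression with Capicua (CIC).

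A level is given as log2 of the processed intensity after scaling each array to its own 75th percentile (control spots left out), which therefore lies at 0. Slide 1 carried the first replicate of each group and slide 2 the other 2 replicates. Between 49.5% and 82.7% of the probes on an array were well above background, with the highest share in WT replicate 1. That array also had the lowest mean correlation with its own group, 0.979 against 0.982 to 0.988 for the other 11. Of 13 Mullerian and oviduct epithelium markers on the array, 7 were well above background on 12 arrays. They included the keratin genes Krt7, Krt8, Krt18 and Krt19 and the oviduct gene Ovgp1. Epcam was so on 11 arrays, Cdh1 on 10 and Pax2 on 9. Pax8 and Foxj1, which define secretory and ciliated oviduct epithelium, were so on 4 arrays each. Of 10 mesenchyme markers 8 were above background on 12 arrays, Vim and Col1a1 among them. So were 3 of 5 smooth muscle markers and 2 of 4 endothelial markers. Of 5 leukocyte markers on the array, Cd3e and Itgam were above background on 12 arrays and Ptprc on 5, with a summed log2 level of 3.49 to 4.01 with GFP and 3.58 to 4.17 over the other groups. Foxl2, Amhr2, Sox9 and Inha, genes of granulosa and Sertoli cells, were also above background on 12 arrays. Of the same list Cyp19a1 was so on 4 arrays, Amh on 1 and Fshr on none. The erythroid marker Hba-a1, a haemoglobin alpha chain gene, was above background on 12 arrays. Its log2 level was −3.61 to −3.13 with GFP and −3.09 to −1.88 over the 9 DICER1 arrays, a separation whose part in the results was not tested. Summed levels of the epithelial, mesenchymal, smooth muscle, granulosa, leukocyte and endothelial lists overlapped between GFP and each construct.

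RefSeq promoter sequence (GRCm38.p6) was at hand for Aqp8 and Adora2b. The 250 bases before each start are shown because both genes lay lower with every construct, to let their base composition be compared. Capitals mark every match to the motifs searched.

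Aqp8: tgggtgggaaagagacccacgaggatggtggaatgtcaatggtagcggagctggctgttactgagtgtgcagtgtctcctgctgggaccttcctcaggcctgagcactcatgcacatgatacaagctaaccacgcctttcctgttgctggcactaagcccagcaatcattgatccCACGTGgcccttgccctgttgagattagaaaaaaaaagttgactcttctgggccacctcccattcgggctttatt

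Adora2b: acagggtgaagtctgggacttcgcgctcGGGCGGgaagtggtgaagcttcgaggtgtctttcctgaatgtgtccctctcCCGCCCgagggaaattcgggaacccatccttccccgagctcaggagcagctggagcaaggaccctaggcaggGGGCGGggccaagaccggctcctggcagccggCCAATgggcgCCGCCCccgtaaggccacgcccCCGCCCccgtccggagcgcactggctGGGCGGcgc

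The first runs along chr7:123462044-123462293 and the second along chr11:62248734-62248983, both on the + strand. Guanine and cytosine made up 52.4% of the Aqp8 window and 69.6% of the Adora2b window, against a median of 52.4% over all promoter windows. The search covered both strands of the 300-base windows, from 250 bases before to 50 after the start, for the cAMP response element (TGACGTCA), its core TGACG, the GC box (GGGCGG), the CCAAT box, the TATA box (TATAAA) and the E-box CACGTG. Every match found lay before the start. Aqp8 held 1 E-box, 75 to 70 bases before the start, a motif found in 7.15% of 32851 windows. Adora2b held 6 GC boxes, 3 on each strand, and 1 CCAAT box 67 to 63 bases before the start. These motifs were in 35.7% and 37.4% of windows. Neither window held the other motifs, of which TGACGTCA was in 1.79% of windows. A match describes these letters and not a bound site.

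All 4 genes separated the groups completely on their brighter probe, with the 9 DICER1 arrays below the 3 GFP arrays. That held for 429 of the 24184 genes tested, or 1.77%. For a single construct the arrays lay wholly below GFP in 10.2% of genes with WT, 5.83% with D1709N and 4.98% with G1809R. Since the 4 genes were chosen on these contrasts, nothing is read from the counts. When genes were ordered by the smallest of their 3 falls against GFP, Aqp8 stood at rank 18, Adamts16 at 22, Adora2b at 57 and Atxn1 at 454. The order between WT and the mutants differed from gene to gene. WT gave the lowest level for Aqp8, the mutants gave the lowest levels for Atxn1, and the 3 constructs overlapped for Adora2b and Adamts16.

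**Figure D1:**
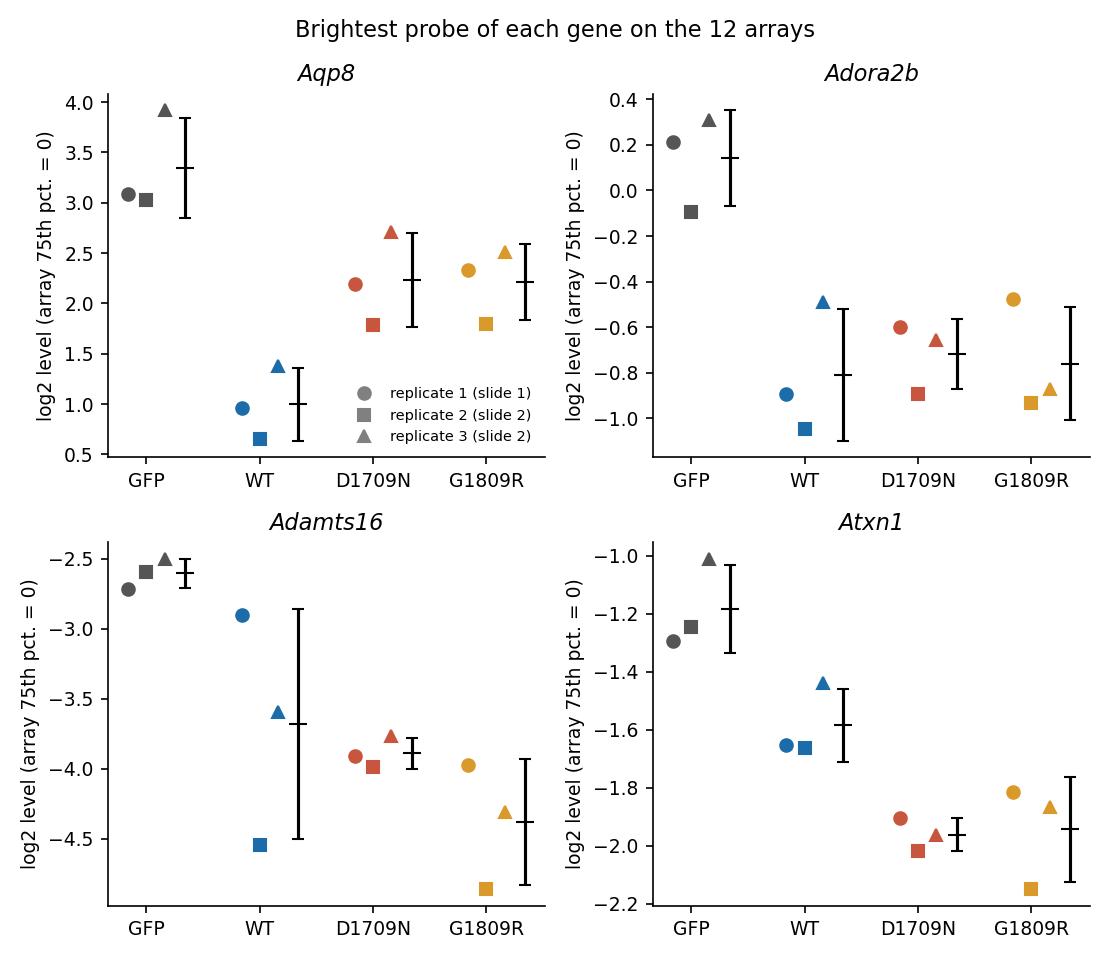
Log2 level of the brighter probe of each gene (y axis, 0 = 75th percentile of the array) in the 4 groups (x axis). Each point is 1 array, its shape the replicate number, and the bar beside a group is the mean ± SD of 3 arrays. Aqp8 lies at 3.03 to 3.92 with GFP and 0.65 to 1.37 with WT, with both mutants between, whereas Atxn1 is lower with the mutants than with WT.

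Aqp8 had the largest difference of the 4 with WT, while Adamts16 had the largest with each mutant. The brighter Aqp8 probe gave processed intensities of 11020, 10920 and 20390 on the GFP arrays (replicates 1 to 3), 2019, 2301 and 3092 with WT, 5904, 3971 and 7548 with D1709N, and 7000, 4090 and 6889 with G1809R. The GFP arrays were all above the others, the WT arrays all below them, and the mutant arrays shared 1 range. The mean log2 level was 3.34 ± 0.50 (SD, n = 3) with GFP and 1.00 ± 0.36 with WT. The mutants stood at 2.23 ± 0.47 (D1709N) and 2.21 ± 0.38 (G1809R). Against GFP the log2 difference was −2.35 ± 0.33 (SE of the limma fit) with WT, a 5.09-fold lower level. It was −1.11 ± 0.33 with D1709N (2.16-fold) and −1.13 ± 0.33 with G1809R (2.19-fold). For Aqp8, alone of the 4, all 3 WT arrays were below all 6 mutant arrays, by a mean log2 of −1.22 ± 0.28 (SE), which places WT at 42.8% of the mutants' level. Without WT replicate 1 that value was −1.21.

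The difference was also taken between same-numbered arrays. For WT the pairs gave −2.12 on slide 1 and −2.37 and −2.55 on slide 2. For D1709N they were −0.89, −1.24 and −1.21, and for G1809R they were −0.75, −1.24 and −1.41. The fall on slide 1 was the smallest in each comparison. The dimmer Aqp8 probe followed the brighter one (r = 0.94 over 12 arrays) and gave −2.33 ± 0.45 with WT, −1.44 ± 0.45 with D1709N and −1.39 ± 0.45 with G1809R. On it the G1809R arrays, at −2.65 to −1.52, overlapped the GFP arrays, at −1.71 to −0.06, so the separation from GFP held on 1 of the 2 probes for this mutant.

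Adora2b was lower by a similar amount with each construct. Its brighter probe read 1509, 1253 and 1666 with GFP, 557.8, 708 and 850 with WT, 851.3, 620.5 and 730.2 with D1709N, and 997.9, 619.5 and 660.3 with G1809R. No DICER1 array reached the lowest GFP array, and the 3 constructs overlapped one another. The log2 level was 0.14 ± 0.21 (SD, n = 3) with GFP. With the constructs it was −0.81 ± 0.29 (WT), −0.72 ± 0.16 (D1709N) and −0.76 ± 0.25 (G1809R). The differences from GFP were −0.95 ± 0.19 (SE) with WT, −0.86 ± 0.19 with D1709N and −0.90 ± 0.19 with G1809R, or 1.93-, 1.81- and 1.87-fold lower. WT was at 95.2% of the mean of the mutants (log2 −0.071 ± 0.16 SE), a difference smaller than the spread of any group.

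The second Adora2b probe did not repeat the fall with WT. It read 422.5, 269.5 and 302.5 with GFP and 228.9, 447.2 and 202.1 with WT, so that WT replicate 2 had the highest intensity of the 12 arrays. After scaling, WT arrays lay both above and below GFP arrays. Its log2 difference was −0.12 ± 0.29 (SE) with WT, with pairs at −0.56 on slide 1 and 0.60 and −0.41 on slide 2. With D1709N it was −0.83 ± 0.29 and did not overlap GFP, and with G1809R it was −0.67 ± 0.29 and overlapped. The probes had r = 0.439 over the 12 arrays. Where on the transcript each probe lies was not analysed here. The fall of Adora2b with WT therefore rests on 1 probe, and the mean of both probes gave −0.54.

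**Figure D2:**
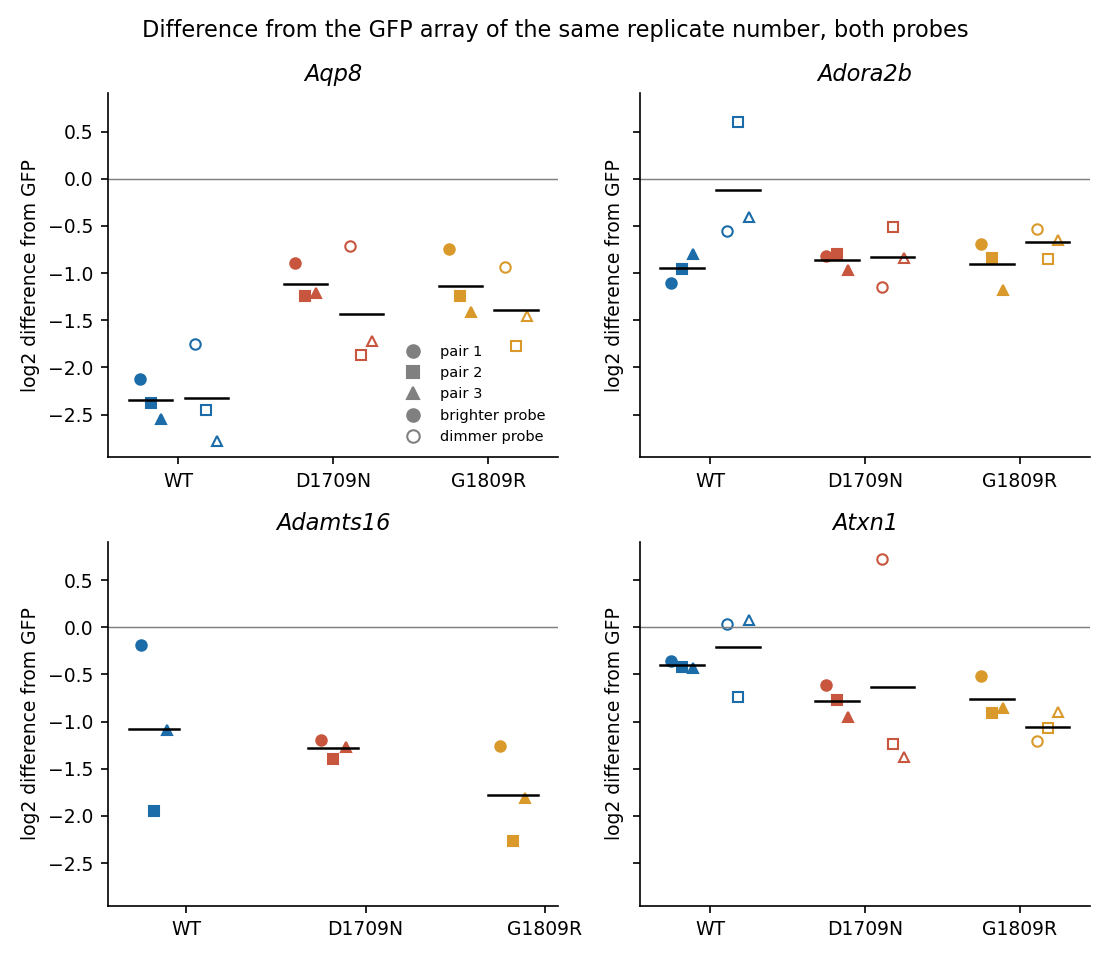
Log2 difference of each DICER1 array from the GFP array of the same replicate number (y axis) for WT, D1709N and G1809R (x axis), with filled symbols for the brighter probe and open symbols for the dimmer one. Lines are means of 3 pairs, and the dimmer Adamts16 probe, not well above background on any array, is left out. Both Aqp8 probes lie below 0 in every pair, while pairs of the dimmer probes lie on both sides of 0 for Adora2b with WT and for Atxn1 with WT and D1709N.

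Adamts16 was dim. Its measurable probe read 197.9, 220.8 and 237.2 with GFP, 138.4, 62.7 and 98.54 with WT, 85.74, 72.48 and 84.33 with D1709N, and 88.32, 40.65 and 60.82 with G1809R. The GFP arrays lay close together above all others, and the WT arrays were the most scattered. The GFP mean was −2.61 ± 0.11 (SD, n = 3) in log2 level. The construct means were −3.68 ± 0.82 (WT), −3.89 ± 0.11 (D1709N) and −4.38 ± 0.45 (G1809R). Against GFP these were differences of −1.07 ± 0.36 (SE), −1.28 ± 0.36 and −1.78 ± 0.36, or 2.11-, 2.44- and 3.42-fold. G1809R thus had the lowest mean, but its arrays overlapped those of D1709N and WT.

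For WT the Adamts16 value varied between the pairs. Slide 1 holds 1 WT array, so an effect of the slide and one of that array cannot be told apart. The pair on slide 1, which holds WT replicate 1, differed by −0.19, and the pairs on slide 2 by −1.94 and −1.09. Without WT replicate 1 the difference was −1.46, and without WT replicate 2 it was −0.64. With D1709N the pairs were −1.20, −1.39 and −1.27, and with G1809R −1.26, −2.26 and −1.81. WT lay above the mean of the mutants by 0.46 ± 0.31 (SE), and by 0.067 without WT replicate 1. The second Adamts16 probe was not well above background on any of the 12 arrays, so it gives no fold.

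Atxn1 showed the smallest fall with WT and a larger one with both mutants. Its brighter probe read 530.6, 564.2 and 668.7 with GFP, 329.5, 461.5 and 439.8 with WT, 345, 284.4 and 295.7 with D1709N, and 394.3, 266.4 and 331.5 with G1809R. After scaling, the WT arrays lay between the GFP arrays and the mutant arrays without overlap on either side. The mean log2 level was −1.18 ± 0.15 (SD, n = 3) in the control, against −1.58 ± 0.13 (WT), −1.96 ± 0.057 (D1709N) and −1.94 ± 0.18 (G1809R). The differences from GFP were −0.40 ± 0.13 (SE) with WT, −0.78 ± 0.13 with D1709N and −0.76 ± 0.13 with G1809R, or 1.32-, 1.72- and 1.69-fold. WT stood above the mean of the mutants by 0.37 ± 0.11 (SE), with 3 of 3 WT arrays above all 6 mutant arrays.

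The pairs for Atxn1 were −0.36, −0.42 and −0.43 with WT, −0.61, −0.77 and −0.95 with D1709N, and −0.52, −0.90 and −0.86 with G1809R. The mutants' fall was smaller on slide 1 in both comparisons. The second Atxn1 probe is annotated with another RefSeq transcript than the brighter one, and whether both read the same transcripts was not tested. The second probe lay near background, at intensities of 17.21 to 107.7, and D1709N replicate 3 was not well above background. On that probe the log2 difference was −0.21 ± 0.51 (SE) with WT, −0.63 ± 0.51 with D1709N and −1.06 ± 0.51 with G1809R. Its pairs were 0.035, −0.74 and 0.077 with WT, 0.73, −1.24 and −1.38 with D1709N, and −1.21, −1.07 and −0.89 with G1809R. It followed the brighter probe loosely (r = 0.488 over 12 arrays), and only its G1809R arrays were separate from GFP.

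The comparison of the mutants with each other did not enter the choice of genes and was tested. None of the 4 was called between D1709N and G1809R by limma, with adjusted p = 1 for each, and no other gene was called either (0 of 24184, 0%, with 65 at an unadjusted p under 0.05). The log2 difference, D1709N less G1809R, was 0.018 for Aqp8 (95% interval −0.71 to 0.75, higher in 1 of 3 pairs) and 0.042 for Adora2b (−0.38 to 0.46, higher in 2 of 3). It was −0.018 for Atxn1 (−0.31 to 0.27, lower in 2 of 3). For Adamts16 it was 0.49 (−0.31 to 1.29, higher in 3 of 3), so that a difference of over 2-fold is within the interval. When the replicate number entered limma as a block, the adjusted p was 0.974 for Adamts16 and 0.984 to 0.991 for the other 3. The blocked SE, between the mutants or from GFP, was 0.12 for Aqp8, 0.13 for Adora2b, 0.28 for Adamts16 and 0.097 for Atxn1. Without the block it was 0.33, 0.19, 0.36 and 0.13, and the intervals above come from that fit. These intervals do not show that the mutants act alike.

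The levels of the 4 genes rose and fell together to different degrees over the 12 arrays, which share the groups and the slides. Pearson's r ran from 0.47 for Aqp8 with Atxn1 to 0.833 for Adamts16 with Atxn1. After the group means were taken out, Aqp8 and Atxn1 had r = 0.813 and Adamts16 had 0.42 to 0.467 with the other 3. Array-to-array variation within a group was thus most alike for Aqp8 and Atxn1, the pair with the lowest r before the group means were removed.

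The 3 genes whose levels followed each gene most closely were taken by Pearson's r over the 12 arrays, as a description. For Aqp8 they were Galc, which codes for the lysosomal galactosylceramidase (r = 0.979), Pik3cb, for a catalytic subunit of PI 3-kinase (0.961), and Bcas1 (0.957). Galc stood at −1.41 ± 0.18 (SD, n = 3) in the control, −2.46 ± 0.16 (WT), −1.82 ± 0.12 (D1709N) and −1.93 ± 0.14 (G1809R). It had the same graded order as Aqp8 over a smaller range. For Adora2b the closest were Tagap1 (0.975), Tagap, which codes for a GTPase-activating protein (0.969), and the zinc finger gene Hivep2 (0.959). Tagap stood at 2.52 ± 0.11 in the control, 1.14 ± 0.32 (WT), 1.51 ± 0.23 (D1709N) and 1.30 ± 0.33 (G1809R). Tagap and Tagap1 are related genes, and whether their probes read each other's transcripts was not tested.

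For Adamts16 the closest genes were Aif1, a calcium-binding protein gene of macrophages (r = 0.904), the PHD finger gene Phf13 (0.904) and Ltb, the gene for lymphotoxin beta (0.902). Ltb stood at −1.60 ± 0.25 (SD, n = 3) in the control, −2.72 ± 0.75 (WT), −3.09 ± 0.82 (D1709N) and −3.47 ± 0.65 (G1809R), the order of Adamts16. Phf13 moved over a far smaller range, from 2.83 ± 0.051 with GFP to 2.51 ± 0.071 with G1809R. For Atxn1 the closest were Gba2, which codes for the non-lysosomal glucosylceramidase (0.944), Max, the partner of MYC (0.942), and the MAP kinase phosphatase gene Dusp16 (0.926). Gba2 stood at 1.72 ± 0.23 in the control, 1.37 ± 0.073 (WT), 0.85 ± 0.27 (D1709N) and 0.90 ± 0.32 (G1809R). With group means removed, r was 0.879 to 0.924 for the genes closest to Aqp8 and 0.51 to 0.778 for those closest to Atxn1. The genes were picked by r over the same arrays, so this is no separate evidence. Deviations that same-numbered arrays share remain in these values.

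**Figure D3:**
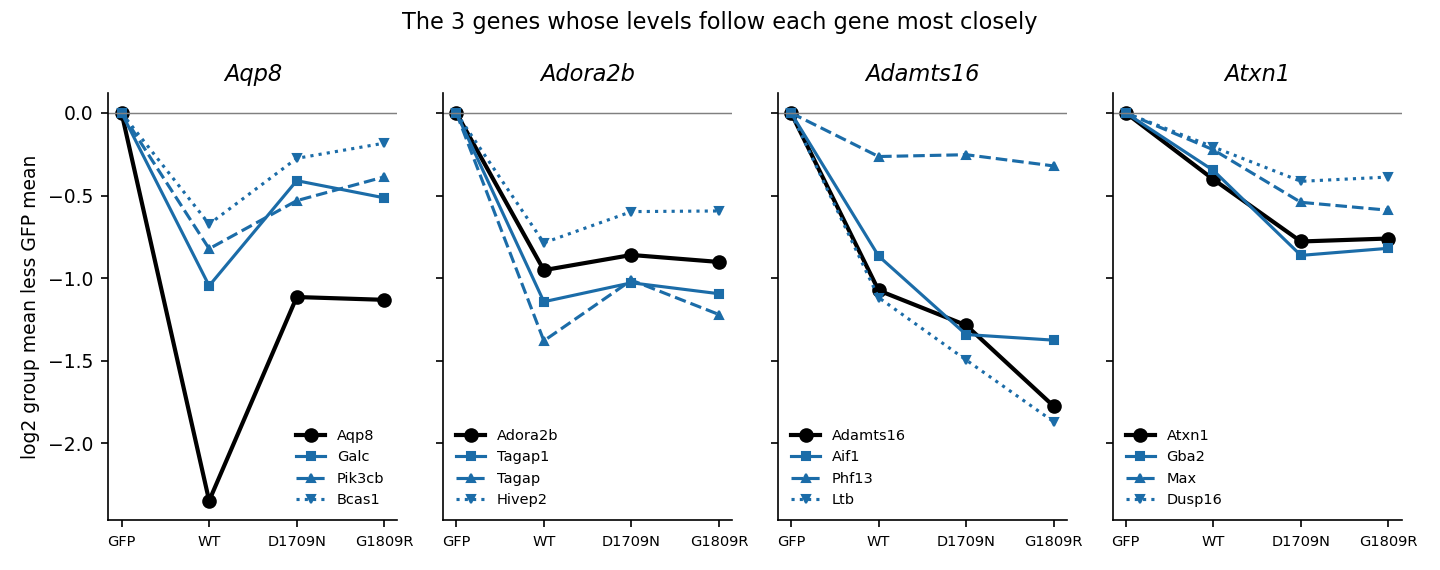
Group means of each gene (black) and of the 3 genes most like it (blue), as log2 difference from the gene's own GFP mean (y axis), in the 4 groups (x axis). Genes following Aqp8 dip furthest with WT, and genes following Atxn1 are lower with the mutants than with WT.

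Genes of the same families and pathways were read from 9 lists of 175 symbols, of which 138 were tested. By limma 6 of the 138 changed with WT against GFP, 2 higher and 4 lower, or 4.35% against 2.95% of all genes (1.19% higher and 1.76% lower). With the replicate number as a block 32 did, 14 higher and 18 lower, or 23.2% against 17.8% of all genes (9.18% higher and 8.6% lower). In the comparison of D1709N with GFP 0 of 138 passed limma (20 at an unadjusted p under 0.05, and 7 with the block), where 0.0496% of all genes did, or 4.25% with the block. For G1809R these were 0, 16 and 7 of 138, against 0.0124% and 3.74% of all genes. Between the mutants 0 of 138 passed, with or without the block. Nothing particular to the pathways is read from these shares. An unadjusted p under 0.05 was reached by 15.4% of all genes for WT, 7.21% for D1709N and 6.64% for G1809R. The 3 comparisons with GFP share the same GFP arrays.

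Among 7 aquaporins tested beside Aqp8, 1 rose with WT and none fell, or 14.3% against 2.95% of all genes (1.19% higher). With the replicate block 1 rose and 1 fell, or 28.6% against 17.8% of all genes. The gene called without the block was Aqp5, a water channel of glands and lung. It has 2 probes, and the dimmer one was not read on its own here. On the brighter one Aqp5 rose 3.86-fold, its log2 level going from −3.39 ± 0.44 (SD, n = 3) to −1.44 ± 0.31. The difference was 1.95 ± 0.26 SE (limma adjusted p = 0.00657, higher in 3 of 3 pairs), and Aqp5 kept its call in all 12 fits that left out 1 array. Its level was −3.10 ± 0.25 with D1709N and −3.26 ± 0.31 with G1809R. With WT, Aqp5 thus rose where Aqp8 was lower. Aqp3, a channel for water and glycerol, was at −0.53 with WT (adjusted p = 0.114, and 0.0167 with the replicate block) and −0.58 with G1809R (0.446, and 0.0394 with the block). Aqp1 was at −2.92 ± 0.89 with GFP and −2.91 ± 0.46 with WT, and had SDs of 1.63 and 1.84 with the mutants. The median log2 difference of the 7 was 0.0055 with WT, against 0.043 over all genes.

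None of the 13 other genes of adenosine reception, turnover and transport passed limma with any construct. With WT 6 had an unadjusted p under 0.05, where 15.4% of all genes did. With the replicate block 2 rose and 3 fell, or 38.5% against 17.8% of all genes. Those called with the block included Adora1 and Adora2a, both genes of adenosine receptors and both higher with WT. Adora1 was at 1.36 ± 0.52 (SE, adjusted p = 0.232, and 0.00445 with the block) and Adora2a at 0.48 ± 0.24 (0.399, and 0.0272 with the block). Adora1 was well above background on 3 WT arrays, but on 2 with GFP, 1 with D1709N and 2 with G1809R. It thus passed the filter on dim probes only through WT, the group where it is high, and nothing is read from its rise. Adk, the kinase that clears adenosine, was at −0.45 (0.299, and 0.00331 with the block). Adora3 was at −0.090 (0.999, and 0.888 with the block).

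Of 32 tested genes of Gs and cAMP signalling 2 fell with WT, or 6.25% against 2.95% of all genes (1.76% lower). Pde7a, a cAMP phosphodiesterase, fell 2.14-fold, from 1.46 ± 0.053 (SD, n = 3) to 0.36 ± 0.14 (−1.10 ± 0.12 SE, limma adjusted p = 0.00266, 3 of 3 pairs), and was called in all 12 fits without 1 array. Pkia, an inhibitor of protein kinase A, fell 1.56-fold (−0.64 ± 0.12, adjusted p = 0.0258, 3 of 3 pairs), a call lost without GFP replicate 1 (0.0807), 2 (0.076) or 3 (0.103) or WT replicate 1 (0.0673). With the block 2 genes of this list rose and 6 fell, or 25% against 17.8% of all genes. Of 14 CREB target genes induced by cAMP none passed limma with WT, D1709N or G1809R. An unadjusted p under 0.05 was reached by 1, 0 and 0 of them. With the block 3, 0 and 0 passed, or 21.4%, 0% and 0%, against 17.8%, 4.25% and 3.74% of all genes. The median of the 14 was −0.26 with D1709N and −0.24 with G1809R, against medians of 0.026 and 0.052 over all genes. With WT it was 0.028, against 0.043 over all genes. All 14 were compared with the same 3 GFP arrays, and a shared shift of these genes was not tested.

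Of 12 tested ADAMTS and ADAMTS-like genes 1 fell with WT, or 8.33% against 2.95% of all genes (1.76% lower). It was Adamts9, a protease that cuts versican and aggrecan, which fell 1.74-fold from −0.040 ± 0.22 (SD, n = 3) to −0.84 ± 0.13 (−0.80 ± 0.13 SE, limma adjusted p = 0.0161, 3 of 3 pairs). It no longer passed when GFP replicate 1 (0.061) or 3 (0.0776) or WT replicate 2 (0.0535) was left out. Adamts8 was at −1.21 ± 0.32 (adjusted p = 0.0768, and 0.00166 with the block). With the block 3 of the 12 rose and 4 fell with WT, 58.3% against 17.8% of all genes. Blocked, 2 fell with D1709N (16.7%) and 1 with G1809R (8.33%), where 2.49% and 1.98% of all genes fell. Medians were −0.18 (WT), −0.22 (D1709N) and −0.26 (G1809R), against 0.043, 0.026 and 0.052 over all genes. These comparisons share the same 3 GFP arrays, and a shared shift of the 12 genes was not tested. Adamts18, the closest relative of Adamts16, was well above background on 1 array of each group and was not tested. Of 13 ADAMTS substrates and inhibitors 1 rose with WT, or 7.69% against 2.95% of all genes (1.19% higher). It was Comp, a cartilage matrix protein gene (0.83 ± 0.19 SE, limma adjusted p = 0.0495, 3 of 3 pairs). Its call was lost in 11 of 12 fits without 1 array, at up to 0.158. With the block 2 of the 13 rose and none fell, or 15.4% against 17.8% of all genes.

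Of 10 other ataxin genes 1 fell with WT, or 10% against 2.95% of all genes (1.76% lower). With the block it was also 1 that fell, or 10% against 17.8% of all genes. Atxn1l, the paralogue of Atxn1 that also binds CIC, fell 1.54-fold, from 2.56 ± 0.20 (SD, n = 3) to 1.93 ± 0.030 (−0.63 ± 0.14 SE, limma adjusted p = 0.0469, and 0.00333 with the block, 3 of 3 pairs). The call was lost in each of the 12 fits without 1 array, at adjusted p = 0.0526 to 0.152. Its level was 2.47 ± 0.18 with D1709N and 2.56 ± 0.16 with G1809R, so that Atxn1 was lowest with the mutants and Atxn1l with WT. Among 23 partners of ataxin 1, which include Atxn1l, it was the 1 gene called with WT, or 4.35% against 2.95% of all genes. With the block 1 partner rose and 2 fell, or 13% against 17.8% of all genes. Gfi1, a repressor bound by ataxin 1, was at −1.08 with D1709N (adjusted p = 0.231, and 0.0105 with the block) and −0.94 with G1809R (0.381, and 0.0204 with the block). Of 17 genes that CIC represses none passed limma with any construct. At an unadjusted p under 0.05 there were 1, 2 and 2, and with the block 3, 1 and 1 passed for WT, D1709N and G1809R. The blocked shares were 17.6%, 5.88% and 5.88%, against 17.8%, 4.25% and 3.74% of all genes.

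**Figure D4:**
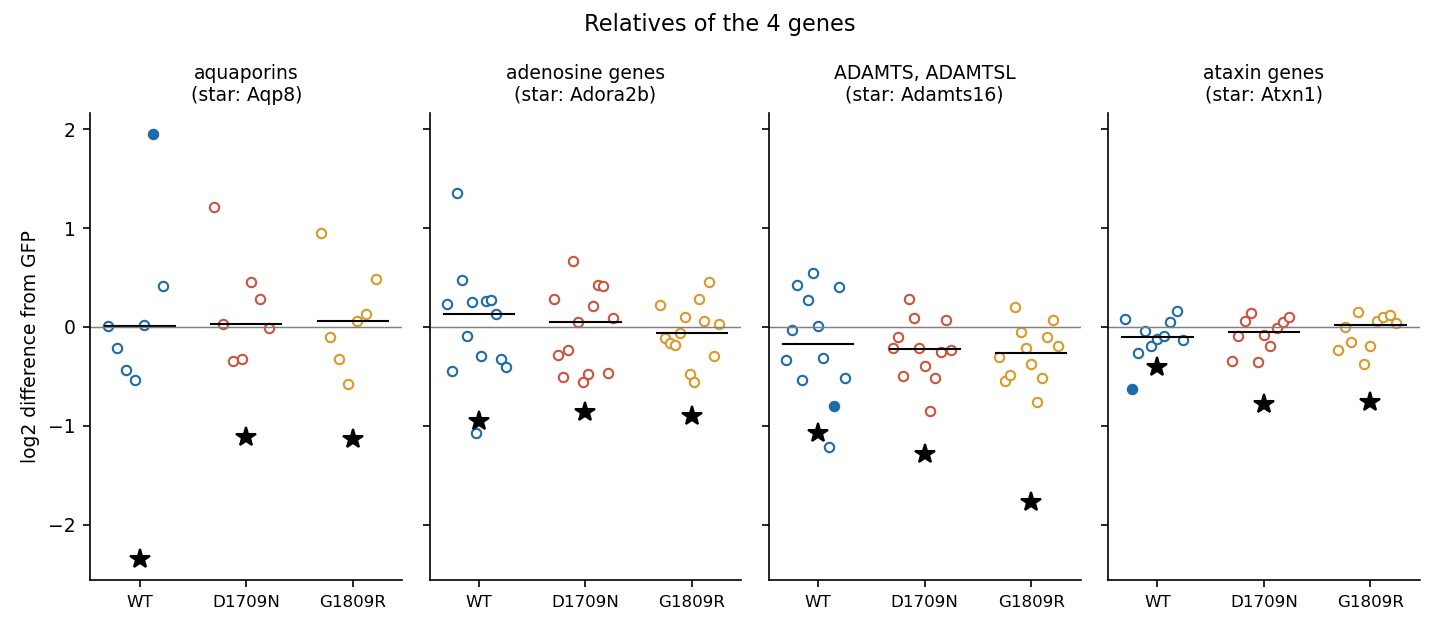
Log2 difference from GFP (y axis) for the tested genes of 4 lists with WT, D1709N and G1809R (x axis). Circles are genes, filled where limma called them without a block, lines are list medians, and the star is the gene named above each panel, which was chosen for its fall. Aqp5, read on the brighter of its 2 probes, stands at 1.95 with WT, opposite to Aqp8 at −2.35.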

How the data were processed

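RNA of 12 samples was hybridised to 1-colour Agilent arrays (100 ng of RNA, Cy3). The authors read and background-corrected the intensities, not scaled between arrays, in Feature Extraction (Agilent; version 11.0.1.1 in the submitters' processing notes). Their deposited table of log2 signals, whose scaling between arrays no label or header states, was an alternative.

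Each non-control spot (59305) was taken as log2 less its array's 75th percentile. Outlier spots were dropped, which left 287 of 55681 probes without a value. Probes that all arrays of some group showed well above background were kept (33024), and the brightest stood for its gene. RefSeq accessions (GRCm38.p6) gave symbols for 14732 of the 24184 genes; the others kept the array's identifier. limma 3.58.1 in R 4.3.3 was fitted to the 12 arrays with group as the factor, two-sided, with Benjamini-Hochberg adjustment over 24184 genes and calls under 0.05. The script was tested on simulated data. The 4 genes and the lists were chosen with earlier results of these data known. The raw mean signal was not used here, so normexp (offset 50) used the raw median.

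Same-numbered arrays deviated together from their group means (r from 0.601 to 0.853 in 18 of 18 pairs of groups). Slide 1 holds replicate 1 of each group and slide 2 the others, so a slide effect would also yield such r. Pairing by replicate number beyond the slide was not tested. Blocked values stand beside results they change. Genes named are the 4, the 3 most alike each by r over the arrays, their close relatives, and called list members; genes called only with the block, with Aqp3, Adk, Adamts8, Gfi1 among them, were chosen after their values were seen. Cic was not analysed here. No 2 arrays held identical values. Some background and marker genes are not reported here.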

Additional observations from a re-analysis of the deposited data

How the results depend on the processing

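All 264 differences of the 4 genes from GFP, over 22 alternatives, lay below 0. The genes were chosen for this sign on the same arrays, so the count is a description and no support for the falls. Single pairs of the dimmer Adora2b and Atxn1 probes lay on both sides of 0. Values that moved by more than the replicate SD were, with normexp, Adamts16 at −0.77 with D1709N and −1.03 with G1809R and Atxn1 at −0.65 with D1709N; with the mean over probes, Adora2b at −0.54 with WT; and on slide 1 alone, Adamts16 at −0.19 with WT and −1.26 with G1809R, and Atxn1 at −0.61 and −0.52 with D1709N and G1809R. Between the mutants, signs turned for Atxn1 with normexp (0.024), on slide 2 (0.018) and with the mean over probes (0.21), and with the last also for Aqp8 (−0.015) and Adora2b (−0.059). Leaving out 1 array gave −0.22 to 0.24 for Aqp8, −0.044 to 0.18 for Adora2b and −0.12 to 0.046 for Atxn1, all with limma adjusted p = 1.

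Genes called with WT (713), D1709N (12) and G1809R (3) were 206, 2 and 1 when dim probes were kept, 2112, 97 and 63 with the slide block, 4300, 1027 and 904 with the replicate block, 3, 1 and 1 on slide 2, and 3, 0 and 1 with only the 2 groups in the fit. D1709N gave 7 with normexp (0 higher, against 2 of 12) and 3 with the mean over probes, G1809R 1 with the latter. Leaving out 1 array gave 129 (without GFP replicate 3) to 651, 2 to 7 and 1 to 2. List genes called with WT (6) were 2 in number when dim probes were kept, and 18 passed with the slide block, 32 with the replicate block, 0 on slide 2, 0 with only 2 groups, and 2 (without GFP replicate 1 or 3) to 5 without 1 array. With the replicate block 7 passed with each mutant. The replicate block changed no call of the 4 genes between the mutants. Over 21 alternatives the limma adjusted p with WT ran from 0.000159 to 0.104 for Aqp5, 0.000431 to 0.0885 for Pde7a, 0.00192 to 0.163 for Pkia, 0.00233 to 0.147 for Adamts9, 0.0105 to 0.273 for Comp and 0.00333 to 0.178 for Atxn1l, with the same sign in 21 of 21.

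List medians that changed sign did so on slide 2 with D1709N for ADAMTS substrates (0.020) and CIC-repressed genes (0.018), and in fits without 1 array. Those fits gave −0.20 to 0.12 for ADAMTS substrates, −0.23 to 0.054 for CIC-repressed genes and −0.085 to 0.0016 for ATXN1 partners with D1709N, −0.062 to 0.17 for CIC-repressed genes with WT, and −0.0033 to 0.30 for aquaporins between the mutants. Dim signal limits Adamts16 and the second Atxn1 probe, and the cause of these shifts was not tested.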
